A study of Arabidopsis thaliana with 9 samples.

Results

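The plastid genome of Arabidopsis thaliana carries genes for photosynthesis and genes that keep the organelle itself running. The second kind was examined here: all probe sets assigned to exactly 1 plastid-encoded gene whose symbol does not begin with psa, psb, pet, atp or ndh and is not rbcL. The rule used gene names only and found 26 of the 22746 probe sets that were not Affymetrix controls, each for a different gene. They comprised 4 subunits of the plastid RNA polymerase, 8 proteins of the small and 7 of the large ribosomal subunit, and 7 genes with other functions. The name housekeeping is loose for the last class, since ycf3 and ycf4 serve photosystem I assembly and ccsA serves cytochrome maturation. A further 7 probe sets list 2 gene identifiers for a gene of this kind and were not counted as members.

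RNA was taken from whole plants of 3 lines, with 3 samples per line and each sample on its own Affymetrix ATH1 array, which measures a transcript with a set of short oligonucleotide probes. The control line, C2S1, is named wild type in the sample titles, although its genetic variation is given as a knock out mutation. The mutant lines 348 and 409 are labelled as T-DNA knock outs without the disrupted gene being named, so what the insertions affect is not known here. Plants of all lines were at growth stage 1.04 after 17 days on plates of 25 seeds at 21 °C, under 16 h of light and 8 h of dark. Separate cultures are not stated for the samples of any line. The p-values therefore reflect how far these samples differ, a spread that may be technical, and 3 arrays per line limit the precision. Shoot markers with a named probe set were bright on all 9 arrays, between 2169 and 6349.6 signal units for RCA, LHCB4.1, LHCB4.2 and PSAE-1. The root marker PYK10 lay between 2340.4 and 3641. Whole plants hold both tissues, while flower and seed markers were not analysed here.

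Plastids transcribe their genes with a bacterial-type polymerase, whose core subunits rpoA, rpoB, rpoC1 and rpoC2 are plastid-encoded, and with phage-type polymerases encoded in the nucleus. Their ribosomes, also of the bacterial type, combine plastid-encoded rps and rpl proteins with many imported ones, and translate the photosynthesis genes as well as the genes described here. Most of these genes are cotranscribed with neighbours and cut into smaller RNAs afterwards. The labelling used here primes on poly(A) tails, which plastid messenger RNAs mostly lack, and how far this shaped the signals was not tested.

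All 26 genes gave signal above the 40th percentile of the array on every one of the 9 arrays, with signals from 48.2 to 7270 in the linear units of the MAS5 software. Probe sets differ in how strongly they bind, so signals were compared between arrays for 1 gene at a time and never between genes. No gene of the group passed the threshold, a limma adjusted p under 0.05 over the 14199 probe sets tested, in any comparison of the lines. For line 348 against the control this was 0 of 26, where 0.0211% of all tested probe sets were called, and 2 of 26 had an unadjusted p under 0.05, against 5.64% of all. For line 409 against the control it was 0 of 26 against a background of 0.0423%, and 6 of 26 (23.1%) had an unadjusted p under 0.05, against 12.2% of all. Both comparisons use the same 3 control arrays. For line 409 against line 348 it was 0 of 26 against 0.0141%, with 4 of 26 at an unadjusted p under 0.05 against 7.48%. The test for any difference among the 3 lines called 0 of 26 against 0.0563%, with 5 of 26 at an unadjusted p under 0.05 against 9.35%. These unadjusted counts moved with single arrays. For line 348 the count was 1 without control replicate 2, control replicate 3 or line 348 replicate 1, and 5 without line 348 replicate 3. For line 409 it was 3 without control replicate 2 and 4 without line 409 replicate 3. It rose to 7 without line 348 replicate 2 and to 8 without line 409 replicate 1. Between the mutant lines it ranged from 1, when line 409 replicate 2 was left out, to 7, when line 409 replicate 1 was left out, and was 2 when control replicate 2, line 348 replicate 2 or line 409 replicate 3 was left out. For any difference it was 3 without control replicate 2 and 7 without line 409 replicate 1.

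Changes were mostly small. In line 348, 21 genes were higher than in the control and 5 lower, with a median log2 change of 0.09, beside -0.01 over all probe sets tested. In line 409, 13 were higher and 13 lower, with a median of 0.00, again beside -0.01. The excess in line 348 was shared by the other plastid-encoded genes. Of 33 photosynthesis genes (psa, psb, pet, atp and rbcL) 26 were higher there, with a median of 0.08. Of 10 ndh genes 9 were higher, with a median of 0.10. In line 409 these counts were 22 of 33 and 4 of 10. All these counts use the same control arrays as those of the 26 genes. Control replicate 3 was the lowest control array for 32 of the 33 photosynthesis genes and for 10 of the 10 ndh genes. Counts of these genes without that array were not taken. Among the 26 housekeeping genes the excess in line 348 depended on single arrays. Without control replicate 3, 10 were higher and 16 lower, with a median of -0.03, and without line 348 replicate 2, 15 were higher and 11 lower, with a median of 0.02. The median in line 409 became -0.14 without control replicate 3. The 95% interval of the change stayed within 2-fold for 26 of 26 genes in line 348, 25 in line 409 and 24 between the mutant lines.

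**Figure D1:**
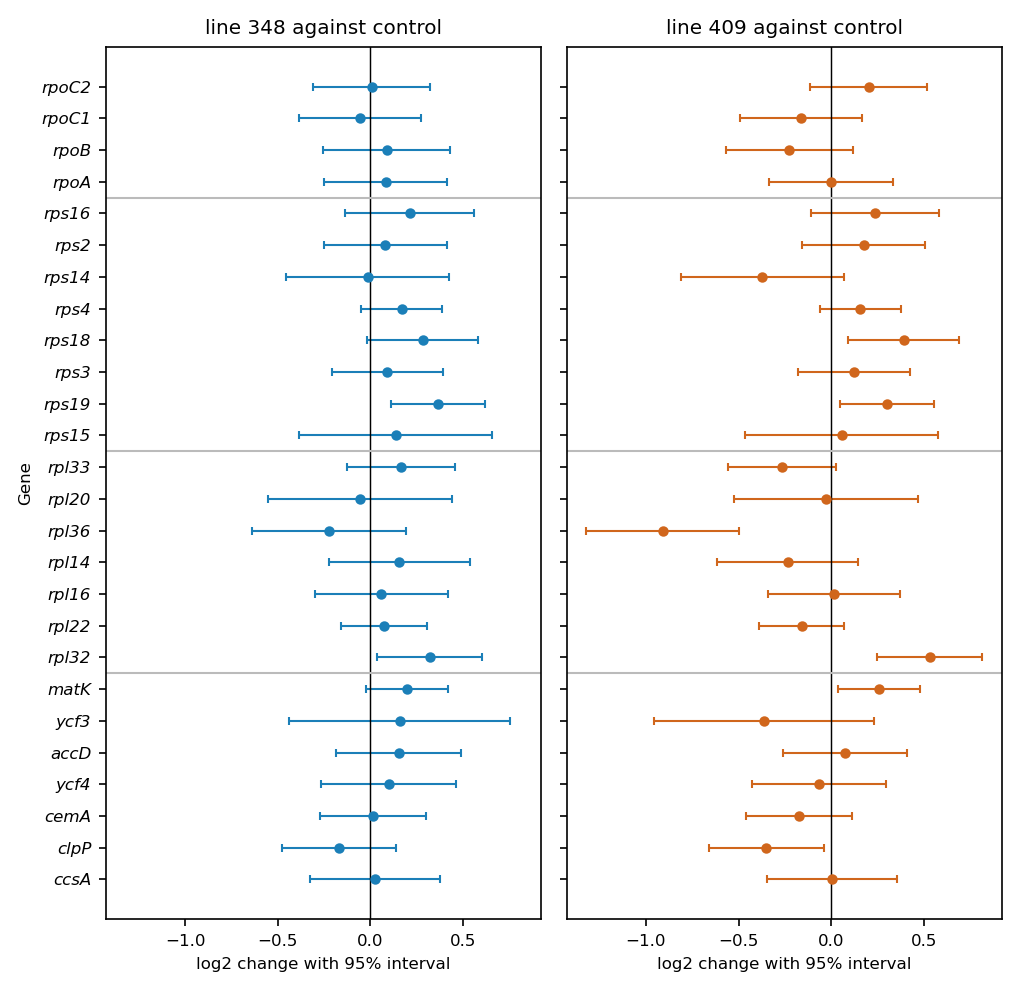
Log2 change of each of the 26 plastid genes in line 348 (left) and line 409 (right) against the control, with points for the limma estimate and bars for its 95% interval, in the order RNA polymerase, small subunit, large subunit and other functions from the top. Most intervals cross 0, and the widest departure is rpl36 in line 409 at -0.91.

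Most of the genes went up and down together between arrays of the same line. Each gene's log2 signal was set against its own mean over the 9 arrays, and the median deviation over the 26 genes was taken per array. It was 0.10, 0.09 and -0.28 for control replicates 1 to 3. In line 348 it was 0.13, 0.20 and -0.13, and in line 409 it was 0.12, -0.22 and 0.03. Each line thus had 1 array on which the group was low: control replicate 3, line 348 replicate 3 and line 409 replicate 2. On these arrays 24, 18 and 22 of the 26 genes were below their own mean. An exception was rpl36, with deviations of 0.53 on control replicate 3, 0.37 on line 348 replicate 3 and -0.51 on line 409 replicate 2. Control replicate 3 was the lowest array of its line for 23 genes, line 348 replicate 3 for 19 and line 409 replicate 2 for 20. Over all tested probe sets the same arrays were lowest of their line for 37.8%, 35.2% and 30.6%. These arrays were singled out after their values were seen, so these counts are a description and carry no test.

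**Figure D2:**
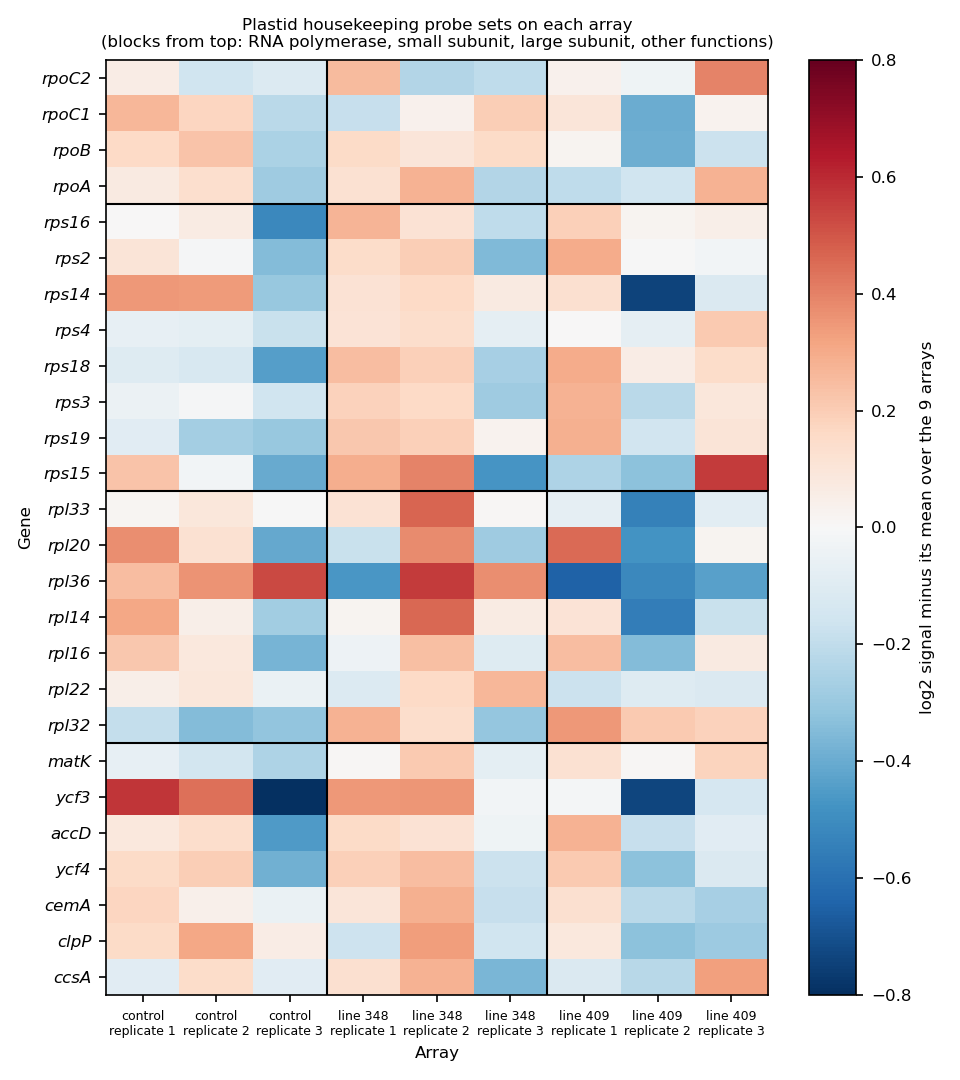
Deviation of the log2 signal from its mean over the 9 arrays, in colour, for the 26 plastid genes (rows) on each array (columns), with lines between the gene classes and between the plant lines. Blue columns stand out at control replicate 3, line 348 replicate 3 and line 409 replicate 2, where 24, 18 and 22 genes were below their own mean.

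The other plastid-encoded genes were low on the same arrays. The 33 photosystem, cytochrome complex, ATP synthase and Rubisco genes had median deviations of -0.24, -0.11 and -0.15 on control replicate 3, line 348 replicate 3 and line 409 replicate 2. The 10 genes of the NDH complex, which carries electrons around photosystem I, had -0.22, -0.08 and -0.36. For comparison, 8671 probe sets not named as plastid-encoded and in the same range of signal had medians between -0.01 and 0.02 on all 9 arrays. The deposited signals were scaled to a similar level on each array, which by itself keeps the median of so many probe sets nearly level. These medians therefore do not test whether the pattern was limited to plastid genes. The pattern on the 3 low arrays was also present in the plastid genes for photosynthesis. The 4 nuclear shoot markers were also lowest of their line on these arrays in 3, 2 and 4 cases, RCA on all of them, at 5061, 5306 and 5594. Line 348 replicate 1, on which the plastid genes were not low, was likewise lowest for 2 of the 4 markers. The summed signal of the 4 markers was 16697 on control replicate 3 against 17479.8 and 17508 on the other control arrays. It was 17362 on line 348 replicate 3 against 18114 and 19033, and 17430.1 on line 409 replicate 2 against 20405.0 and 19327, and the part of these markers' cells in the pattern was not tested. The root marker PYK10 gave 3470 on control replicate 3, 2930 on line 348 replicate 3 and 3571 on line 409 replicate 2. These were the highest, the lowest and the middle value of their lines, in that order. In RNA from whole plants, fewer green cells or plastids and less of a transcript in each cannot be told apart.

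Control probe sets on the arrays were looked at after this pattern had been seen. The probe set for 5S ribosomal RNA gave 303 and 255 on control replicates 1 and 2 and 187 on control replicate 3. In line 348 it gave 266, 282 and 151, and in line 409 it gave 214, 153 and 228, so its lowest array in each line was the one on which the plastid genes were low. The 25S ribosomal RNA probe set gave 1534, 1042 and 1428 in the control, against 1183, 1852 and 1335 for line 348 and 965, 900.5 and 1122 for line 409, and was lowest on another array in the control and in line 348. The 3′ to 5′ ratio of GAPDH, a measure of RNA integrity, ranged from 1.58 to 1.97 over the arrays and was 1.97, 1.60 and 1.63 on control replicate 3, line 348 replicate 3 and line 409 replicate 2. The same ratio for actin was higher and more variable. It was 8.97, 11.96 and 9.86 in the control, 6.93, 11.35 and 6.38 in line 348 and 8.05, 6.08 and 10.71 in line 409, so it was the lowest of its line on 2 of the 3 arrays with low plastid signals and in the middle on control replicate 3. The part of RNA composition or labelling in the pattern was not tested beyond these values.

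**Figure D3:**
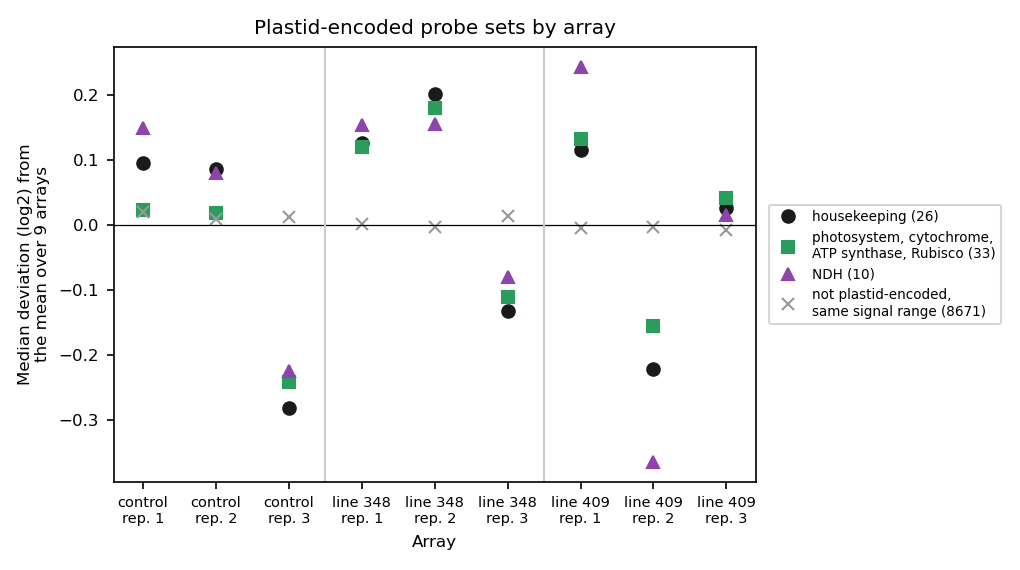
Median deviation of the log2 signal from its mean over the 9 arrays, per array, for the 26 plastid housekeeping genes, 33 photosynthesis genes, 10 NDH genes and 8671 probe sets of the same signal range not named as plastid-encoded. The 3 plastid groups dip together on control replicate 3, line 348 replicate 3 and line 409 replicate 2. The other probe sets stay between -0.01 and 0.02, and scaling of the arrays by itself keeps the median of so many nearly level.

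The spread within lines was wide for these genes. The median SD of the log2 signal within lines was 0.239 for the 26 genes, 0.194 over all tested probe sets and 0.166 over the 8671 of the same range. When the median deviation of the 43 other plastid probe sets on each array was added to the model as a covariate, a setting chosen after seeing the data, the SD of the 26 genes became 0.148. It became 0.188 over all tested probe sets. With that covariate still 0 of the 26 passed the threshold in each comparison.

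The 4 polymerase genes encode the core of the bacterial-type enzyme. The gene for the α subunit, rpoA, had signals of 3078, 3213 and 2408 in the control, against 3185, 3552 and 2494 for line 348 and 2546, 2621 and 3552 for line 409, with full overlap of the lines. The β subunit gene rpoB had 72.9, 76.7 and 53.4 in the control, against 72.5, 69.3 and 72.6 for line 348 and 65.7, 48.2 and 56.7 for line 409. All 3 signals of line 409 were below all 3 of line 348, while both lines overlapped the control.

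The part of the catalytic core encoded by rpoC1 had signals of 1443, 1355 and 1033 in the control, against 1057, 1231 and 1376 for line 348 and 1286, 910.4 and 1225 for line 409. For rpoC2, whose product completes that core, they were 568, 488 and 504 in the control, against 649.7, 462 and 473 for line 348 and 559, 531 and 719 for line 409. Neither gene separated any pair of lines. Of the 4 genes, 3 were higher and 1 lower in line 348, with a median log2 change of 0.04. In line 409, 1 was higher and 3 lower, with a median of -0.08, and none had an unadjusted p under 0.05 in any comparison of 2 lines. Without control replicate 3 all 4 were lower in line 348, with a median of -0.05, and without line 409 replicate 2 the median in line 409 was 0.03. The difference between the mutant lines at rpoB was -0.32 ± 0.16 (SE, n = 3 per line, limma adjusted p = 0.689) on the log2 scale, with an interval of -0.66 to 0.03. Only 1 nuclear gene among 21 listed partners of the enzyme had a named probe set, a phage-type polymerase gene (AT5G15700), which was too dim to be tested.

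The 8 small-subunit genes mostly had higher values in both mutant lines, none of which passed the threshold. In line 348, 7 of 8 were higher than in the control, with a median log2 change of 0.15, and in line 409 also 7 of 8, with a median of 0.17. Without control replicate 3 these were 5 of 8 with a median of 0.04 and 6 of 8 with a median of 0.07. Their largest values were at rps19 and rps18, both structural proteins of the small subunit. The rps19 signals were 2338, 2061 and 2014 in the control, against 2889, 2839 and 2535 for line 348 and 3027, 2239 and 2679 for line 409. In line 348 all arrays were above all control arrays, the only gene of the 26 without overlap in that comparison, against 13.2% of all tested probe sets in either direction and 6.06% upward. Its log2 change was 0.37 ± 0.12 (SE, n = 3 per line, limma adjusted p = 0.730) in line 348 and 0.30 ± 0.12 (SE, n = 3 per line, limma adjusted p = 0.335) in line 409, where 1 array lay within the control range.

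The rps18 signals were 990.1, 972 and 784 in the control, against 1266, 1214 and 886 for line 348 and 1309.7, 1107 and 1178 for line 409. Line 409 lay wholly above the control, while line 348 overlapped it on replicate 3. The log2 change was 0.28 ± 0.14 (SE, n = 3 per line, limma adjusted p = 0.877) in line 348 and 0.39 ± 0.14 (SE, n = 3 per line, limma adjusted p = 0.296) in line 409.

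The only small-subunit gene with a lower mean in line 409 was rps14, with signals of 194, 193 and 121 in the control, against 164, 169 and 159 for line 348 and 165, 88.2 and 139 for line 409. Its log2 change there was -0.37 ± 0.21 (SE, n = 3 per line, limma adjusted p = 0.497), with overlapping arrays, and its lowest array was replicate 2, on which most plastid genes were low. The gene rps16, which contains an intron, had signals of 170.3, 178 and 117 in the control, against 206, 185 and 147 for line 348 and 195, 173 and 176 for line 409. The lines overlapped, and the log2 change in line 348 was 0.21 ± 0.16 (SE, n = 3 per line, limma adjusted p = 0.914). The remaining small-subunit genes, rps2, rps3, rps4 and rps15, overlapped between all lines. Their signals ran over 1047 to 1645, 2259.7 to 3340.4, 5540.4 to 7270.1 and 384 to 789, in that order.

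Among the 7 large-subunit genes, the comparison of the mutant lines gave the most low unadjusted p-values. In line 348, 5 were higher and 2 lower than in the control, with a median log2 change of 0.07. In line 409, 2 were higher and 5 lower, with a median of -0.16. Without control replicate 3 the medians were 0.00 and -0.25, and without line 409 replicate 2 that of line 409 was -0.06. Against line 348, line 409 had 5 of 7 lower, and 4 of these, rpl36, rpl33, rpl14 and rpl22, were all 4 genes of the whole group with an unadjusted p under 0.05 in that comparison. Of all tested probe sets, 4.01% had such a p and were lower in line 409. None of the 4 passed after adjustment. Over the whole group this count of 4 ranged from 1 to 7 when single arrays were left out, with the 1 for line 409 replicate 2 and the 7 for line 409 replicate 1. The split of the 7 large-subunit genes became 3 higher and 4 lower without line 409 replicate 2 or line 348 replicate 2.

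The largest log2 change of the 26 genes was at rpl36, which encodes a very small protein of the large subunit. Its signals were 1621, 1749 and 1969 in the control, against 987, 2009.6 and 1765 for line 348 and 870.0, 954 and 1009 for line 409. Line 409 was below every control array, and 1 array of line 348, replicate 1, was at the level of line 409 while the other two were at the level of the control. The log2 change in line 409 was -0.91 ± 0.19 (SE, n = 3 per line, limma adjusted p = 0.123), a 1.88-fold lower level with an interval of -1.32 to -0.50. In line 348 it was -0.22 ± 0.19 (SE, n = 3 per line, limma adjusted p = 0.925), and line 409 differed from line 348 by -0.68 ± 0.19 (SE, n = 3 per line, limma adjusted p = 0.530). The adjusted p for line 409 depended on line 348: it was 0.0134 without line 348 replicate 1 and 0.0155 in a model of the control and line 409 alone, and up to 0.425 under the other settings tried. Without that array line 348 stood at 0.09 against the control, and line 409 differed from line 348 by -0.99, with a limma adjusted p of 0.0242. The array of line 348 that read low at rpl36 was not one of those on which the whole group was low.

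The gene rpl32 went the other way. Its signals were 1542, 1382 and 1409 in the control, against 2134, 1937 and 1418 for line 348 and 2239, 2033 and 1999 for line 409. All arrays of line 409 were above all of the control, and in line 348 replicates 1 and 2 were above it while replicate 3 was within it. The log2 change was 0.53 ± 0.13 (SE, n = 3 per line, limma adjusted p = 0.160) in line 409, with an interval of 0.25 to 0.82, and 0.32 ± 0.13 (SE, n = 3 per line, limma adjusted p = 0.850) in line 348.

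The rpl33 signals were 3828, 4019.6 and 3769.7 in the control, against 4106, 5227 and 3812 for line 348 and 3600.4, 2603 and 3562 for line 409, with line 409 below both other lines on every array. The log2 change was 0.17 ± 0.14 (SE, n = 3 per line, limma adjusted p = 0.920) in line 348, -0.27 ± 0.14 (SE, n = 3 per line, limma adjusted p = 0.468) in line 409 and -0.43 ± 0.14 (SE, n = 3 per line, limma adjusted p = 0.576) between the mutant lines. A narrower shift was seen at rpl22, with signals of 2273, 2344 and 2124 in the control, against 2036, 2454 and 2642 for line 348 and 1952, 2051 and 2031 for line 409. Line 409 lay below the control throughout and overlapped line 348 on 1 array, with a difference between the mutant lines of -0.23 ± 0.11 (SE, n = 3 per line, limma adjusted p = 0.661).

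The rpl14 signals were 706, 589 and 468 in the control, against 578, 783 and 596 for line 348 and 614, 386 and 503 for line 409, overlapping throughout, with a difference between the mutant lines of -0.39 ± 0.18 (SE, n = 3 per line, limma adjusted p = 0.658). The last 2 genes of the class, rpl16 and rpl20, overlapped between all lines, with signals of 893 to 1376 and 479 to 917. Over the 26 genes, 6 (23.1%) did not overlap between line 409 and the control, against 17.7% of all tested probe sets. Of these 3 lay above the control, against 7.79% of all, and 3 below it, against 9.87%. Between the mutant lines 2 did not overlap, rpl33 and rpoB, against 11.1% of all, and both were lower in line 409, against 5.67%.

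**Figure D4:**
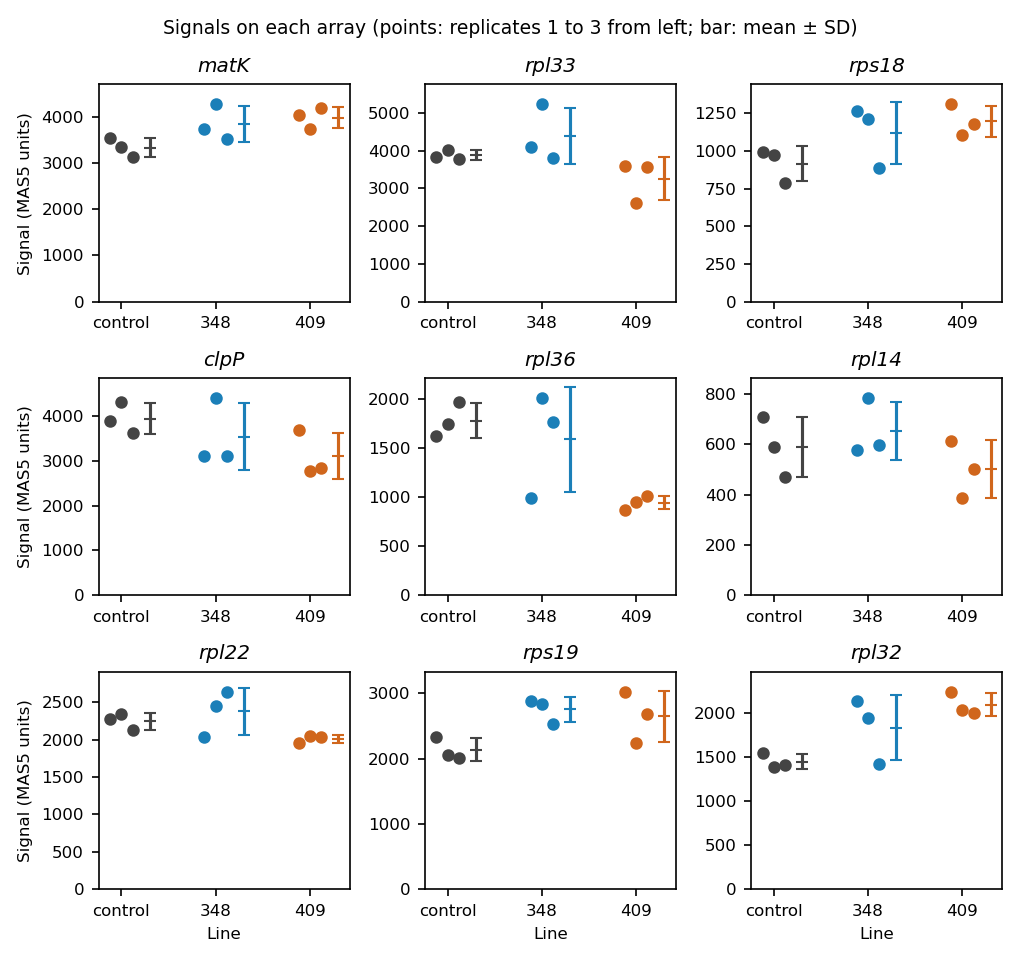
Signal in MAS5 units on each array for the 9 plastid genes with an unadjusted p under 0.05 in any comparison of 2 lines, with a point for each replicate and a bar for the mean ± SD of 3 arrays. At rpl36 the line 409 arrays and line 348 replicate 1 sit at 1009 or below, while the other arrays sit at 1621 or above.

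The genes with other functions were led by matK, which encodes a maturase needed for splicing of plastid introns. Its signals were 3541, 3338 and 3120.4 in the control, against 3729.6, 4269 and 3507 for line 348 and 4028, 3727 and 4190.1 for line 409. All line 409 arrays were above all control arrays, by a small margin, and 1 line 348 array was within the control range. The log2 change in line 409 was 0.26 ± 0.10 (SE, n = 3 per line, limma adjusted p = 0.337).

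The protease subunit gene clpP, whose product forms part of the core of the Clp protease, had signals of 3875, 4302 and 3619.8 in the control, against 3099.7, 4394 and 3110.0 for line 348 and 3690.1, 2772 and 2844 for line 409. Line 409 overlapped the control on replicate 1 only, and its log2 change was -0.35 ± 0.14 (SE, n = 3 per line, limma adjusted p = 0.349). The gene accD, for the plastid-encoded subunit of the acetyl-CoA carboxylase that starts fatty acid synthesis, had 712, 739.7 and 488 in the control, against 746, 726 and 654 for line 348 and 813, 588 and 628 for line 409. These overlapped in all lines.

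The gene ccsA, for a haem attachment factor of c-type cytochromes, had 3571, 4209 and 3571 in the control, against 4156, 4604 and 2947 for line 348 and 3501, 3250.1 and 4768 for line 409. The envelope membrane protein gene cemA had 2289.6, 2085 and 1959 in the control, against 2173, 2476 and 1789.5 for line 348 and 2217, 1746 and 1691 for line 409. Both overlapped between all lines, as did the assembly factor genes of photosystem I. For ycf3 the signals were 895, 816 and 343 in the control, against 768, 769 and 592 for line 348 and 594, 359.6 and 547 for line 409, with control replicate 3 and line 409 replicate 2 the lowest. For ycf4 they were 1090.5, 1121 and 748 in the control, against 1117, 1159.6 and 867 for line 348 and 1133, 779 and 902 for line 409. Of the 7 genes of this class, 6 were higher in line 348, with a median log2 change of 0.10, and 3 were higher and 4 lower in line 409, with a median of -0.07. Without control replicate 3, 1 was higher and 6 lower in each mutant line, with medians of -0.04 and -0.22, and without line 409 replicate 2 the median in line 409 was 0.06.

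Many of these genes are transcribed in clusters, and neighbouring members were set side by side in the gene order of the RefSeq annotation. Pairs were formed by position alone, without regard to strand or transcription unit, so a pair need not be cotranscribed. Of 13 adjacent pairs of members, 10 had changes of the same sign in line 348 and 6 in line 409. With 21 of the 26 genes higher in line 348, most pairs would share a sign there whatever their position. No share was taken for pairs that are not adjacent, so these counts do not show that neighbours changed together. In the ribosomal cluster that ends with rpoA, the log2 changes in line 409 were 0.30 at rps19, -0.16 at rpl22, 0.12 at rps3, 0.02 at rpl16, -0.23 at rpl14, -0.91 at rpl36 and 0.00 at rpoA. The nearest members on either side of rpl36 thus had values closer to 0. In line 409 rpl33 was at -0.27 and its neighbour rps18 at 0.39, and rpl32 was at 0.53 and its neighbour ccsA at 0.01. In the cluster of rpoB, rpoC1, rpoC2 and rps2 the line 409 values were -0.23, -0.16, 0.20 and 0.18. None of these changes passed the threshold, and differences between neighbours were not tested.

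**Figure D5:**
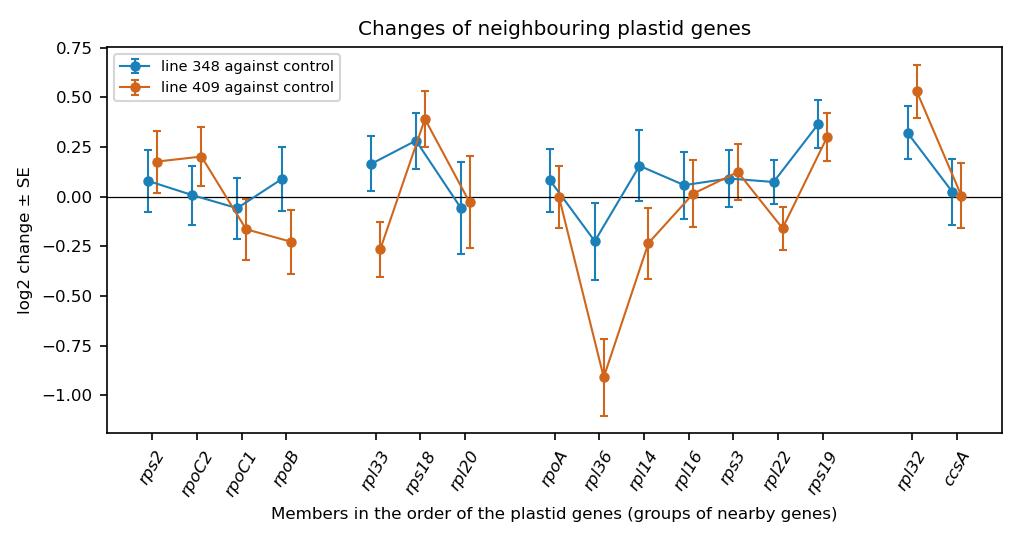
Log2 change ± SE against the control for members of 4 groups of nearby plastid genes, in gene order, for line 348 and line 409. In line 409 rpl36 stands at -0.91 between rpoA at 0.00 and rpl14 at -0.23, and rps18 at 0.39 lies beside rpl33 at -0.27.

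The nuclear genes whose products work with these plastid genes also had mostly small changes. Of 98 listed genes, 22 had a named probe set. Of the 21 bright enough to test, 0 passed the threshold in limma, and 1 (4.76%) in line 348 and 2 (9.52%) in line 409 had an unadjusted p under 0.05, against 5.64% and 12.2% of all tested probe sets. Of 10 nuclear genes for plastid ribosomal proteins, 8 were higher in line 348, with a median log2 change of 0.05, and 9 in line 409, with a median of 0.13. The lowest unadjusted p-values of this list were at AT1G64510 in line 409, with a log2 change of 0.38 ± 0.13 (SE, n = 3 per line, limma adjusted p = 0.278), and at AT4G01310, with 0.20 ± 0.12 (SE, n = 3 per line, limma adjusted p = 0.537). In line 348 they were at AT5G47190, with 0.17 ± 0.14 (SE, n = 3 per line, limma adjusted p = 0.917), and again at AT4G01310, with 0.14 ± 0.12 (SE, n = 3 per line, limma adjusted p = 0.924).

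Of 5 nuclear genes for partners of clpP in the Clp protease, 2 were higher in line 348 and 3 in line 409. AT1G68660 had a log2 change of -0.22 ± 0.13 (SE, n = 3 per line, limma adjusted p = 0.885) in line 348 and -0.38 ± 0.13 (SE, n = 3 per line, limma adjusted p = 0.262) in line 409. In line 348 AT4G12060 was at 0.40 ± 0.19 (SE, n = 3 per line, limma adjusted p = 0.876). Its signals were 281.8, 231.1 and 240.9 in the control, against 296.5, 267.6 and 461.8 for line 348, so replicate 3 stood apart. With each array left out, this change was as low as 0.17. The protease subunit gene CLPP4 was at 0.22 ± 0.12 (SE, n = 3 per line, limma adjusted p = 0.480) in line 409. Of the nuclear genes listed for plastid RNA splicing and decay, 4 had a named probe set, all for splicing factors. They were 2 higher and 2 lower in line 348. In line 409 all 4 were lower, from -0.24 to -0.00, with a median of -0.10. AT5G04810 had -0.22 ± 0.12 (SE, n = 3 per line, limma adjusted p = 0.884) in line 348 and -0.15 ± 0.12 (SE, n = 3 per line, limma adjusted p = 0.649) in line 409. CFM3A had 0.21 ± 0.14 (SE, n = 3 per line, limma adjusted p = 0.888) in line 348, and CFM3B had -0.24 ± 0.17 (SE, n = 3 per line, limma adjusted p = 0.590) in line 409.

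For cytochrome maturation, in which ccsA works, CcdA had 0.01 ± 0.13 (SE, n = 3 per line, limma adjusted p = 0.995) in line 348 and 0.16 ± 0.13 (SE, n = 3 per line, limma adjusted p = 0.654) in line 409. AT1G49380 had -0.24 ± 0.18 (SE, n = 3 per line, limma adjusted p = 0.910) in line 348 and -0.18 ± 0.18 (SE, n = 3 per line, limma adjusted p = 0.721) in line 409. No nuclear partner of accD had a named probe set.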

How the data were processed

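Per the labels' protocols, total RNA of whole plants was labelled with biotin by the Affymetrix One-Cycle method and hybridised to ATH1 arrays. The values deposited by the authors are signal intensities on a linear scale, made with MAS5 and GCOS per the submitters' processing notes, with versions not given in the sources used here. Their 2% trimmed mean was 100 on every array, and no further normalization was applied. The 64 Affymetrix control probe sets entered no test. Genes were named through the platform's probe table, which named 1 gene for 13513 probe sets, several for 503 and none for 8730, and from the RefSeq gene table, where 77 of the 13513 had no match.

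Tests ran on log2(signal + 4.98), where 4.98 is the 20th percentile of an array, as the median of the 9 arrays, so changes of dim genes are understated. Probe sets above the 40th percentile on at least 3 of 9 arrays were tested, 14199 in all, with limma 3.58.1 in R 4.3.3 in 1 model of the 9 arrays (eBayes with a trend on intensity). Benjamini-Hochberg adjustment ran over all 14199. Intervals are 95% intervals. The code was tested on simulated data.

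The genes and lists were chosen with earlier results of these data known. Signals on every array are given for the polymerase genes and the genes of other functions. Among ribosomal genes they are given for the 3 with the largest change in each mutant line and for those with an unadjusted p under 0.05. Up to 2 genes with the lowest p per nuclear list and mutant line are given. Replicate numbers follow sample order, since the titles number line 348 as 1, 1 and 3. No batch is given in the labels. Alternatives were the scaling, pseudocount, filter, probe sets, trend, array weights, arrays in the model, each array left out and a replicate block, plus a plastid covariate and the 7 probe sets with 2 gene identifiers, both added after seeing the data.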

Additional observations from a re-analysis of the deposited data

Results flagged for a closer look

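The rpoB gene, for the β subunit of the plastid RNA polymerase, was the only member whose mutant lines lay wholly on opposite sides of the control mean. All 3 arrays of line 348 were above the control mean of 67.7 and all 3 of line 409 below it. The difference of line 409 from line 348 was -0.32 on the log2 scale, and its limma adjusted p of 0.689 did not pass the threshold. Control replicate 3 was the lowest control array at 53.4, while control replicates 1 and 2 were above all arrays of line 348.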

How the results depend on the processing

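The count of plastid housekeeping genes called stayed at 0 in each comparison under every setting tried except those with the line 348 arrays reduced. It became 1, rpl36 in line 409 against the control, with only the arrays compared and without line 348 replicate 1. Without that array it was also 1 for line 409 against line 348 and for any difference, so with each array left out these 3 counts were 0 to 1, and for line 348 the count was 0 to 0. Of all probe sets, 3 were called for line 348, and this count was 0 with only probe sets with 1 gene, 1 without the intensity trend, 10 with array weights and 6 with only the arrays compared. For line 409 it was 6, and 40 with array weights and 21 with the plastid covariate. Between the mutant lines it was 2, and 1 without the filter, with only probe sets with 1 gene or without the trend. For any difference it was 8, and 4 without the filter or the trend, 2 with only probe sets with 1 gene, and 19 with array weights or the covariate. With each array left out these counts were 1 to 24, 1 to 60, 1 to 6 and 4 to 41. The highest were without control replicate 3, apart from the 6, which was without line 348 replicate 2, and the 1 for line 409 was without its replicate 2. The cause was not tested.

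With each array left out, the median log2 change of the 26 genes ran from -0.03 to 0.22 for line 348, from -0.14 to 0.14 for line 409 and from -0.19 to 0.05 between the mutant lines, where it was -0.08. The positive ends were without line 348 replicate 3 and, for the last 2, without line 409 replicate 2. With the plastid covariate the median was -0.04 in line 348, with 9 higher and 17 lower. At an unadjusted p under 0.05, the 6 genes of line 409 became 3 without the trend, 4 without the filter and 10 with array weights or the covariate. The 2 of line 348 became 1 without the trend or with the replicate block and 4 with array weights. The 4 between the mutant lines became 2 without the trend, without the filter or with quantile normalization, and 6 with array weights or the covariate. The 5 for any difference became 2 without the trend, 3 without the filter, 8 with array weights and 9 with the covariate. Over 34 single-gene values under 714 combinations with a setting, 708 kept their direction and 6 turned. The turned values were rpl36 in line 348, with -0.43 to 0.086 when each array was left out, and CcdA in line 348, with -0.089 to 0.098 when each was left out, -0.046 with array weights and -0.019 with the covariate.

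The replicate block used the numbers in the titles. Samples of the control and line 409 with the same number had correlations of their deviations of 0.19, -0.04 and 0.10, so the numbers were not taken to pair them, although 4 of 6 arrays correlated best with their own number. With the replicate block 1 probe set was called for line 348 and 0 of the 26 genes in each comparison, the median of the 26 was 0.02 in line 348, with 16 higher and 10 lower, and CcdA in line 348 turned to -0.0078. The number of arrays limits what can be detected.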

Other observations

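The 7 probe sets that list 2 gene identifiers for a plastid gene of the same kind had log2 changes of -0.21 to 0.13 in line 348 and -0.47 to 0.11 in line 409. With them the group holds 33 probe sets, of which 0 passed the threshold in limma in each comparison. In line 348 and line 409 against the control 2 (6.06%) and 7 (21.2%) had an unadjusted p under 0.05, against 5.64% and 12.2% of all tested probe sets, with median log2 changes of 0.08 and -0.00. This setting was added after seeing the data.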
